A study of Rattus norvegicus with 36 samples.

Results

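Immediate early genes are genes that a cell transcribes within minutes of a stimulus, before any new protein is needed. The members described here were 10 rat genes chosen by symbol, with earlier results of these data known, *Fos*, *Fosb*, *Jun*, *Junb*, *Egr1*, *Atf3*, *Ier2*, *Dusp1*, *Nr4a1* and *Zfp36*. Of these, 9 had a row among the 24773 genes of the count table. No row carried the symbol *Ier2*, so that its expression was not analysed. All 9 passed the filter on low counts in ileum, where 13026 genes were tested, and in colon, where 12906 were tested. The RNA came from male UCD-T2DM rats, a strain that becomes obese and develops type 2 diabetes spontaneously with age. Poly-A RNA of whole distal ileum and whole proximal colon was sequenced from the same 18 rats, which gave 36 libraries. The 6 ND rats were 70 days old and not yet diabetic. The 6 D1M rats were 168 to 172 days old and had been diabetic for 22 to 23 days. The 6 D3M rats were 172 to 173 days old and had been diabetic for 88 to 116 days. ND rats were younger than both diabetic groups, so that age and diabetes cannot be told apart in any comparison with ND, and no related strain without diabetes was included. In whole tissue, more cells of a type and more RNA per cell cannot be told apart. All rats were fasted, anesthetized with pentobarbital and exsanguinated, and the gut was dissected and measured on ice before tissue was frozen.

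The list covers the main arms of the early response. *Fos*, *Fosb*, *Jun* and *Junb* encode subunits of the AP-1 transcription factor, *Egr1* a zinc finger transcription factor, *Atf3* a bZIP transcription factor induced by many stresses, and *Nr4a1* an orphan nuclear receptor. *Dusp1* encodes a phosphatase that switches off MAP kinases, and *Zfp36* encodes tristetraprolin, a protein that speeds decay of mRNAs with AU-rich elements. Their own transcripts are short-lived, and many of them are switched on through serum response factor, which binds the CArG box, or through CREB, which binds the cAMP response element. Growth factors and microbial products are known inducers of them in gut epithelium.

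The RefSeq promoter table held 7 of the 10 genes, without *Fos*, *Jun* and *Atf3*. The 250 bases before the start of 3 of them are shown. *Egr1* moved most in the library that stood apart in colon, and *Zfp36* and *Dusp1* were called in ileum. *Junb* was also called in ileum and is not shown. Its window held neither a CArG box nor a full cAMP response element. Coordinates are of GRCr8, *Egr1* on the plus strand at chr18:26736828-26737077, *Zfp36* on the minus strand at chr1:92799109-92799358 and *Dusp1* on the plus strand at chr10:17184603-17184852. Capitals mark the CArG box in *Egr1* and *Zfp36* and TGACGTCA, the full cAMP response element, in *Dusp1*, both strands having been searched.
Egr1: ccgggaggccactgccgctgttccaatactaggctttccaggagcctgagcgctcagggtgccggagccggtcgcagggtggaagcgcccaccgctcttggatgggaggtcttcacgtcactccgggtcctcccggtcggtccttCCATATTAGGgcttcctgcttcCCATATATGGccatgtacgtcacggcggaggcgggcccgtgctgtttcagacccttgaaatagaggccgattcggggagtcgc
Zfp36: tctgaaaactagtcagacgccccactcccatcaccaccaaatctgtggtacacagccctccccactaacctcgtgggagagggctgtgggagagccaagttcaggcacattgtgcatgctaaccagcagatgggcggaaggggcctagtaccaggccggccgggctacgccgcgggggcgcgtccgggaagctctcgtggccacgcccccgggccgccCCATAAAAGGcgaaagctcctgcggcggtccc
Dusp1: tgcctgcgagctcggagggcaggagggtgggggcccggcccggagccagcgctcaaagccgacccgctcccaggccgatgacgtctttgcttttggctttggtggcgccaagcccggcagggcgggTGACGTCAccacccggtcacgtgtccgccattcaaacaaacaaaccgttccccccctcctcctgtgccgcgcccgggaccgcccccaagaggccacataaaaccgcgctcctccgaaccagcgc
*Egr1* held 2 CArG boxes, which began 105 and 83 bases before the start, and *Zfp36* held 1, which began 32 bases before it. A CArG box was in 2 of the 7 members' windows and in 1.5% of the 33469 windows of this length in the table, and 2 or more boxes were in 7 of those windows, or 0.0209%. TGACGTCA was in 2 of the 7, *Dusp1* at 124 bases and *Ier2* at 66 bases before the start, and in 1.59% of all windows. These matches describe the letters only, and the letters do not overlap between the motifs shown.

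Libraries held 10024041 to 21510043 counts assigned to genes, and their labels fell into 3 sets, called flow cells here. The set was read from the number after the letter F in the library label. The labels do not say what that letter stands for, and the paper names only batch effects between runs. The name flow cell is thus an assumption. No D3M ileum library was on flow cell 2 and no D3M colon library on flow cell 1. The tissue labels held by their markers, with 3 exceptions. One of these was the ND colon library of K4028, with 8706 CPM of *Fabp6*, an ileal bile acid binding protein, where the medians of ND, D1M and D3M colon were 9.08, 7.47 and 7.16 CPM. The others were the ileum libraries of D3M rat P762, with 1345 CPM of *Car1*, a colonic carbonic anhydrase, and of ND rat K4040, with 3616 CPM, where the medians were 55.4 CPM in D3M ileum and 11.3 CPM in ND ileum. CPM relate the count of a gene to the TMM-adjusted size of its library.

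In ileum, 3 of the 9 genes were higher in D3M than in ND rats and none was lower. They were *Junb*, *Zfp36* and *Dusp1*, a subunit of AP-1 and the members that limit the response itself. By edgeR's quasi-likelihood test with a flow cell term, 12.5% of all genes tested in ileum passed FDR 0.05 in this comparison, 1082 higher and 550 lower. The median log2 fold change was 0.74 over the members and -0.08 over all genes tested.

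*Zfp36* (rn6 chr1:85380088-85382569) had 517 to 929 CPM, with a median of 630, in the 6 D3M ileum libraries, against 359 to 476.5 CPM, with a median of 442, in the 6 ND ileum libraries. The groups did not overlap, and how many of all genes separated in this way was not counted. The difference was 0.84 ± 0.17 on the log2 scale (SE, edgeR FDR 0.0066). *Junb* (rn6 chr19:26092974-26094756) had 213 to 388 CPM, with a median of 297, in D3M ileum, against 165 to 282 CPM, with a median of 219, in ND ileum. Its groups overlapped, and the difference was 0.77 ± 0.15 on the log2 scale (SE, edgeR FDR 0.0049). *Dusp1* (rn6 chr10:16970626-16973418) had 80.1 to 295 CPM, with a median of 129, in D3M ileum, against 76.8 to 112 CPM, with a median of 100.5, in ND ileum. The highest value belonged to D3M rat P762, the next D3M library had 141 CPM, and the difference was 0.91 ± 0.27 on the log2 scale (SE, edgeR FDR 0.036).

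The other 6 genes did not pass, at adjusted p of 0.212 to 0.642. *Atf3* (rn6 chr13:109817728-109849632) had 17.9 to 204 CPM in D3M ileum, with a median of 49.2, against 37.5 to 87.8 CPM in ND ileum, with a median of 47.3. Its log2 difference of 0.87 had an SE of 0.56 (edgeR FDR 0.314), as the D3M libraries ran from below all ND libraries to above all of them, and it was 0.22 without D3M rat P762. *Fos* (rn6 chr6:109300433-109303299) had 23.4 to 209 CPM in D3M ileum, with a median of 55.2, against 27.9 to 97.0 CPM in ND ileum, with a median of 67.5. The D3M median was the lower of the 2, while the fitted log2 difference was 0.46 ± 0.56 (SE, edgeR FDR 0.617), or 0.03 without D3M rat K3961. *Nr4a1* (rn6 chr7:142905758-142920216) was the only member with a negative value, -0.23 ± 0.30 (SE, edgeR FDR 0.642).

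The 3 calls differed in how far they held. *Junb* and *Zfp36* stayed past FDR 0.05 with each of the 18 ileum libraries left out in turn, and *Dusp1* in 9 of 18. *Dusp1* lost its call without the library of ND rat K4028, K4038, K4040 or K4047, of D1M rat K3986 or K3988, or of D3M rat K3961, K3977 or P762, with FDR up to 0.123 and a log2 difference of 0.59 without P762. The 2 D3M libraries on flow cell 3 were those of P762 and P780, which were also the lowest of the D3M ileum libraries in summed macrophage, mast cell and endothelium markers. On flow cell 3 the D3M minus ND difference was 1.10 for *Junb*, 1.06 for *Zfp36* and 1.28 for *Dusp1* on the log2 scale (2 libraries against 2). On flow cell 1 it was 0.36, 0.32 and 0.10 (4 libraries against 1). Without P762 and P780 none of the 3 passed, with log2 differences of 0.52 (FDR 0.0741), 0.66 (FDR 0.0846) and 0.48 (FDR 0.259) for *Junb*, *Zfp36* and *Dusp1*.

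Markers of ileal epithelium moved with the same comparison, 4 of 8 being higher in D3M ileum and none lower. The summed level of these 8 genes was 25280 to 42630 CPM in D3M ileum, against 18150 to 30270 CPM in ND ileum. Summed macrophage markers were 186 to 598 CPM in D3M ileum, against 487 to 542 CPM in ND ileum. With the ileal epithelium score as a covariate the log2 differences were 0.63 for *Junb* (FDR 0.144), 0.97 for *Zfp36* (FDR 0.0916) and 1.197 for *Dusp1* (FDR 0.131). None of the 3 passed, though those of *Zfp36* and *Dusp1* were larger than without the covariate, and 22 of all genes passed. Without a flow cell term only *Zfp36* passed, with log2 differences of 0.45 for *Junb* (FDR 0.0639) and 0.55 for *Dusp1* (FDR 0.171). In a fit of the D3M and ND libraries alone none passed, with 0.76 for *Junb* (FDR 0.0506), 0.72 for *Zfp36* (FDR 0.0513) and 0.79 for *Dusp1* (FDR 0.186). What part cell composition has in the 3 calls was not tested beyond these fits.

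**Figure D1:**
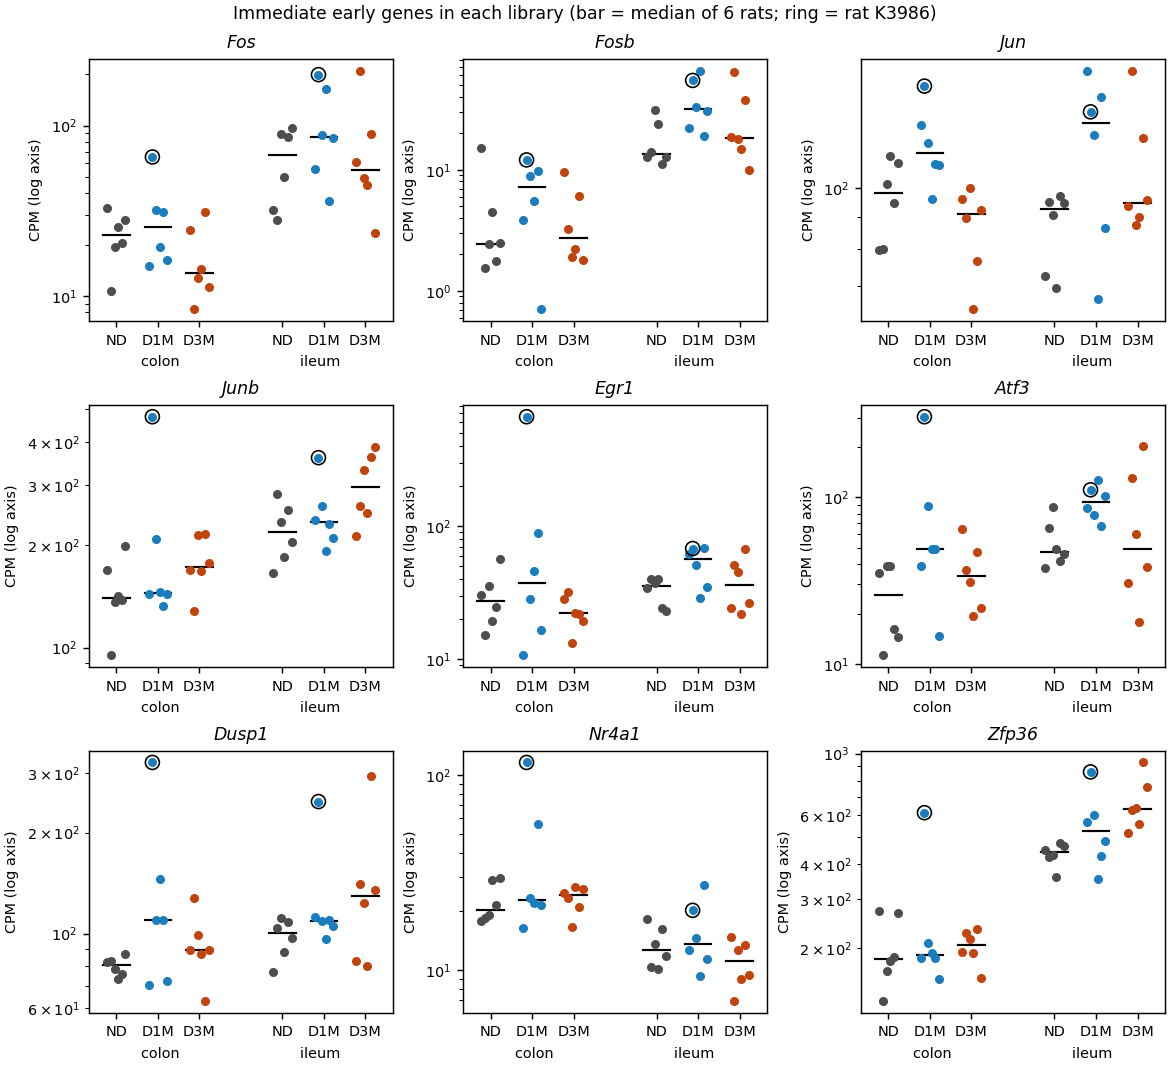
CPM of each of the 9 genes in each library (log axis), colon at left and ileum at right, by group, with bars at the median of 6 rats and rings around rat K3986. *Zfp36* in ileum lies between 517 and 929 CPM in D3M rats, above all ND rats, and the ringed D1M colon library is the highest of the 18 colon libraries for 8 of the 9 genes.

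D1M ileum did not differ from ND ileum for any of the 9 genes at FDR 0.05, and 0.0154% of all genes passed. All 9 values were positive, from 0.27 to 1.14 on the log2 scale, with a median of 0.63 against -0.03 over all genes tested. At an unadjusted p under 0.05 there were 6 members, and 8.34% of all genes, with the smallest member FDR at 0.473. *Fosb* (rn6 chr1:80214494-80221710) had 18.9 to 65.3 CPM, with a median of 31.5, in D1M ileum, against 11.2 to 30.9 CPM, with a median of 13.4, in ND ileum. Its difference of 1.14 ± 0.50 was the largest of the 9 (SE, edgeR FDR 0.584). *Egr1* (rn6 chr18:27657628-27661429) had 29.0 to 68.3 CPM, with a median of 56.4, in D1M ileum, against 23.2 to 40.3 CPM, with a median of 35.7, in ND ileum. *Jun* (rn6 chr5:114011189-114014277) had 66.9 to 153 CPM in D1M ileum, against 69.6 to 97.2 CPM in ND ileum. DESeq2 called none of the 9.

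D3M and D1M ileum did not differ for any of the 9 genes at FDR 0.05, where 2.22% of all genes passed. *Junb* had the smallest adjusted p, with 213 to 388 CPM in D3M ileum against 192 to 361 CPM in D1M ileum and a log2 difference of 0.39 ± 0.13 (SE, edgeR FDR 0.110). It passed by DESeq2 (FDR 0.0363) and without D3M rat K3959 (edgeR FDR 0.026). At an unadjusted p under 0.05 there were 2 members, *Junb* and *Zfp36*, and 19.1% of all genes. *Fos*, *Fosb*, *Jun*, *Egr1*, *Atf3* and *Nr4a1* had negative values, down to -0.50 for *Nr4a1*.

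**Figure D2:**
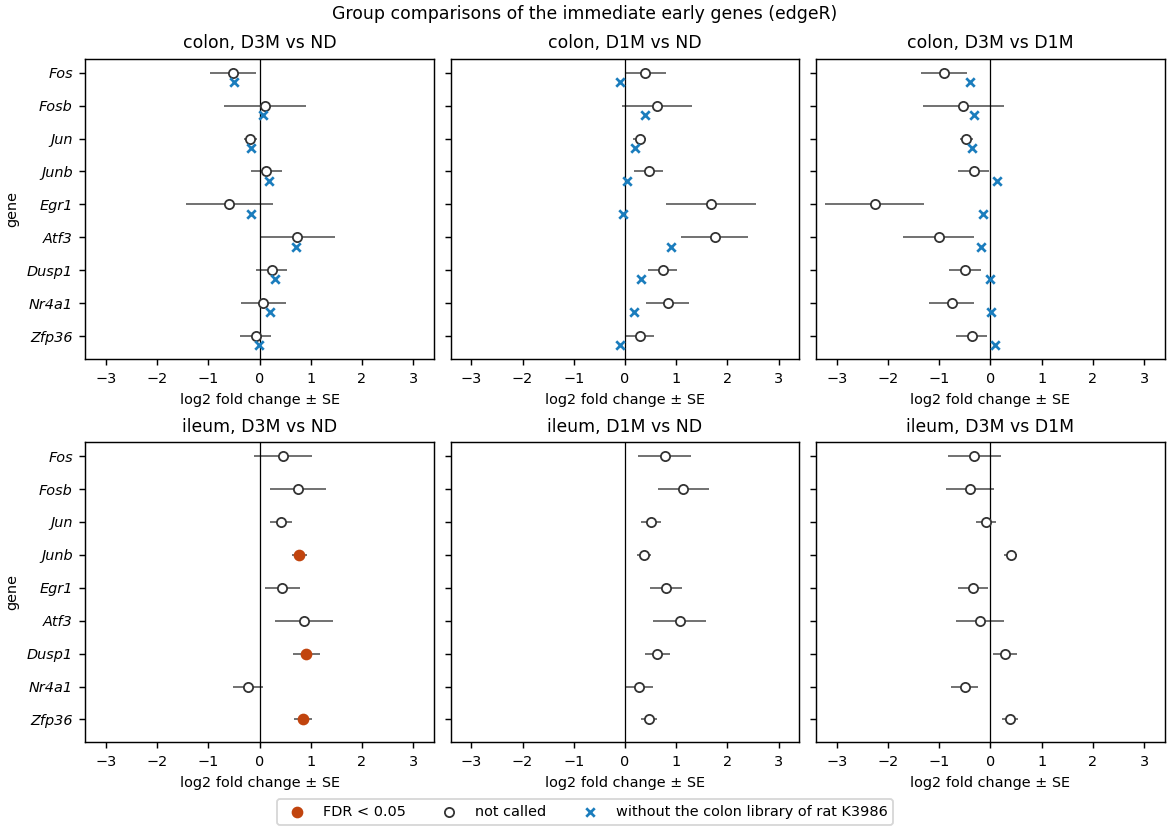
Log2 fold change with SE of each gene in the 3 group comparisons of colon (upper row) and ileum (lower row), filled where FDR was below 0.05 and open where it was not, with crosses for colon without the library of D1M rat K3986. *Junb*, *Zfp36* and *Dusp1* are the 3 filled points, all in D3M against ND ileum.

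In colon no member was called in any of the 3 group comparisons. Of all genes, 0.0155% passed between D3M and ND, 0% for D1M against ND and 0% for D3M against D1M colon. At an unadjusted p under 0.05 there were 0, 3 and 2 members in these comparisons, and 10%, 4.66% and 5.28% of all genes. DESeq2 and limma voom also called none of the members. D3M against ND values lay from -0.59 to 0.74 on the log2 scale, with 5 of 9 positive. *Fosb* went from 0.10 to 0.94 there without the ND colon library of K4028, which held ileal RNA. Without the same library *Fosb* went from 0.63 to 1.51 in D1M against ND, and it was called in neither. In D1M against ND all 9 were positive, from 0.29 to 1.75, and in D3M against D1M all 9 were negative, from -2.26 to -0.33. These 2 directions share the D1M libraries.

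A single library carried much of both. The colon library of D1M rat K3986 was the highest of the 6 D1M colon libraries for all 9 genes and the highest of all 18 colon libraries for 8. For 6 genes it lay far above the other 5 D1M libraries by Dixon's criterion, as it did for 0.976% of all genes tested in colon. Without it, 6 of 9 values in D1M against ND were positive, with a median of 0.18 instead of 0.63. In D3M against D1M, 3 of 9 were then positive, with a median of -0.15 instead of -0.53.

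*Egr1* showed it most. It had 662 CPM in the colon of K3986, and the other 5 D1M colon libraries had a median of 28.6 and a highest value of 88.5 CPM, a ratio of 23.2 to that median. Of 11126 genes ranked by this ratio, *Egr1* was at rank 2. Genes of low mean CPM over the colon libraries were left out of the ranking, and that mean included K3986. A gene could therefore enter the ranking through its value in K3986 itself. *Fosl1*, at rank 1, had a mean of 4.22 CPM but at most 1.67 CPM in any other colon library. The ranks are thus partly selected on the value they rank. *Egr1* ran from 13.2 to 31.99 CPM in D3M colon and from 15.1 to 56.3 CPM in ND colon. The D1M minus ND difference was 1.67 ± 0.88 (SE, edgeR FDR 0.953) with K3986 and -0.03 without it.

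*Atf3* had 306 CPM in this library against a median of 49.0 CPM in the other 5, and *Nr4a1* had 116 against 22.2 CPM. *Fos* had 65.4 against 19.5 CPM, *Zfp36* 613 against 185 CPM, *Junb* 475 against 144 CPM and *Dusp1* 323 against 109.5 CPM. These 6 ratios lay between 2.95 and 6.24. *Fosb* at 12.1 CPM and *Jun* at 145 CPM were the highest of their group too, by ratios of 2.19 and 1.33, and neither they nor *Nr4a1* met Dixon's criterion. *Fosb* was highest in another colon library, 15.1 CPM in that of ND rat K4028, which held ileal RNA.

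The same library was high in other early genes. From lists of related genes, 6 of 22 other immediate early transcription factors and 8 of 24 other early effectors lay far above the other D1M colon libraries. Over all genes tested in colon this held for 0.976%. *Fosl1*, another AP-1 subunit, had 64.6 CPM against a median of 0.596, and *Egr2* had 30.5 CPM against 2.15. *Ptgs2*, the inducible cyclooxygenase, had 24 CPM against 4.26, and *Btg2*, an antiproliferative early gene, had 734 against 228 CPM. Of the heat shock genes, 1 of 11 entries stood apart, *Dnajb1*, with 332 against 119 CPM. None of 9 dual specificity phosphatases and decay factors and none of 21 upstream kinases and factors did. Genes outside the lists, chosen after their values were seen, included *Hmox1*, heme oxygenase, with 534 against 39.9 CPM, and *Hbegf*, a ligand of the EGF receptor, with 87.8 against 13.1 CPM.

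Depth and markers of this library were not unusual. It had 17680884 counts and a TMM factor of 0.981, and its summed markers of smooth muscle (10960 CPM), macrophages (635 CPM) and colonic epithelium (28650 CPM) lay within the range of the other 17 colon libraries. In ileum the same rat had the highest D1M values of *Fos* (199 CPM), *Junb* (361 CPM), *Dusp1* (247 CPM) and *Zfp36* (859 CPM). Its fasting glucose of 178.6 mg/dl was the highest of the D1M rats. How any of these bears on its early genes was not tested.

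**Figure D3:**
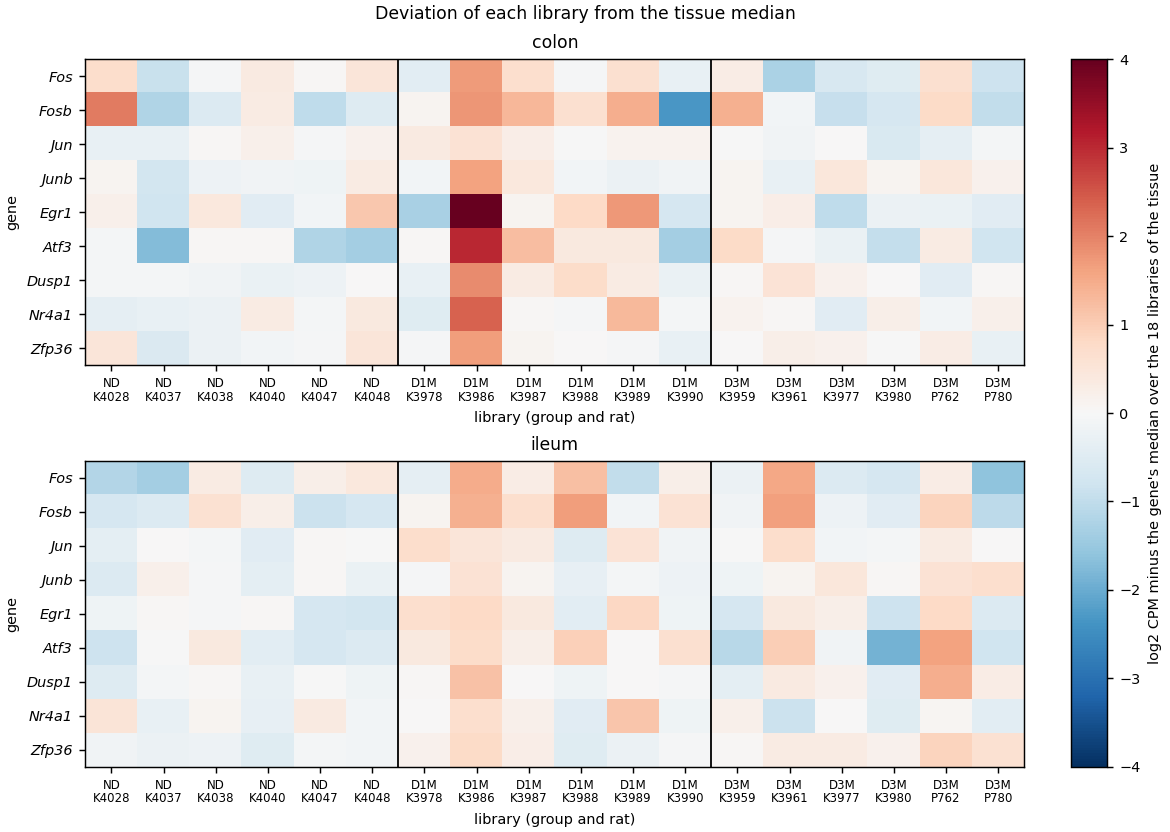
Deviation of log2 CPM from the gene's median over the 18 libraries of the tissue (colour scale from -4 to 4), with libraries in columns by group and rat and genes in rows, colon above and ileum below. The D1M K3986 column of colon is above the median for all 9 genes.

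**Figure D4:**
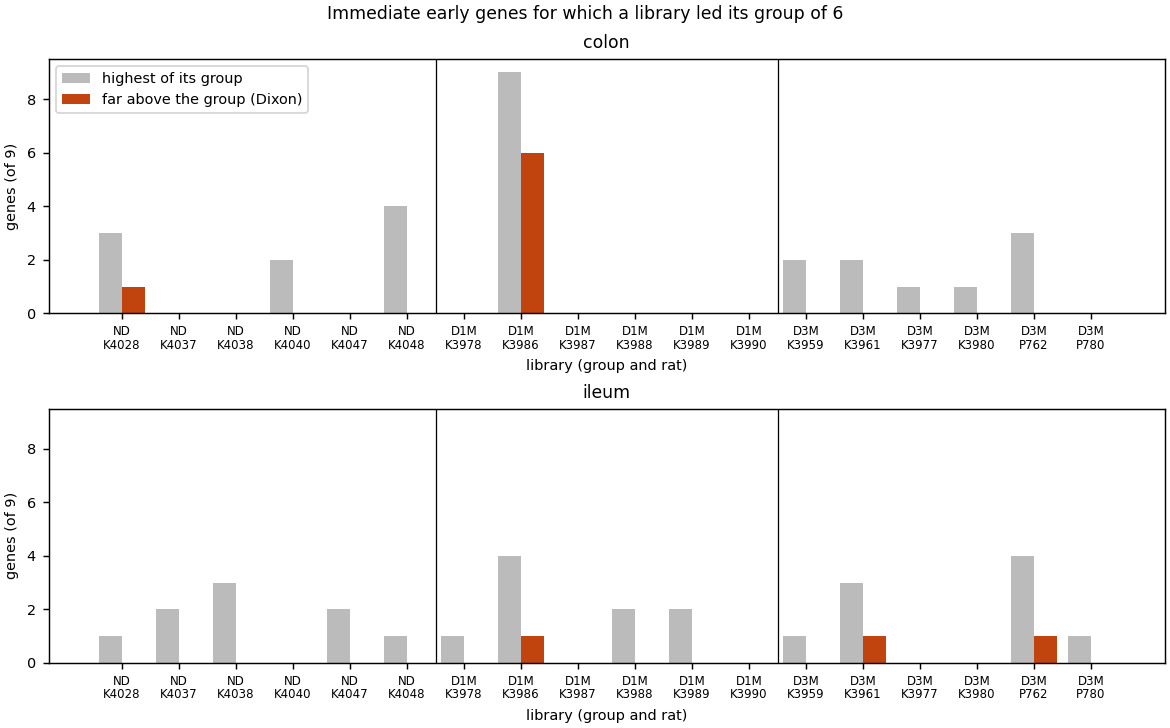
Number of the 9 genes for which a library was the highest of its group of 6 (grey) and lay far above the others by Dixon's criterion (orange), by library, colon above and ileum below. The D1M colon library of K3986 led its group for 9 genes and lay far above it for 6.

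Between tissues, 6 of the 9 genes were lower in colon than in ileum, 1 was higher and 2 did not pass, where 73.2% of all 13697 genes passed. The median over the members was -0.78 on the log2 scale, against 0.03 over all genes. The AP-1 subunits *Fosb* and *Fos* and the decay factor *Zfp36* differed most. Over both tissues on a common scale, the colon to ileum ratio of *Fos* was below 1 in 18 of 18 rats, with a median of 0.289, and its log2 difference was -1.95 ± 0.29 (SE, edgeR FDR 4.13e-07). The ratio of *Zfp36* was also below 1 in 18 of 18 rats, from 0.173 to 0.645, and its log2 difference was -1.52 ± 0.15 (SE, edgeR FDR 1.15e-10). *Fosb* was lower in colon in 17 of 18 rats, the exception being K4028, whose colon library held ileal RNA, and its log2 difference was -2.51 ± 0.35 (SE, edgeR FDR 1.52e-07). Its colon counts were 13 to 224 per library.

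*Junb* (-0.78), *Atf3* (-0.96) and *Dusp1* (-0.49) were lower in colon in 17, 16 and 16 of 18 rats. *Atf3* and *Dusp1* lost their calls without the libraries of flow cell 2, at -0.65 (FDR 0.229) and -0.13 (FDR 0.644), and *Dusp1* without the ileum library of K3986 (FDR 0.0599). *Nr4a1* went the other way, higher in colon in 17 of 18 rats with a log2 difference of 0.91 ± 0.21 (SE, edgeR FDR 0.00021). *Jun* (-0.22, FDR 0.0581) and *Egr1* (-0.05, FDR 0.906) did not pass. *Egr1* was lower in colon in 13 of 18 rats, and without the K3986 colon library its difference was -0.61 (FDR 0.0199). *Jun* passed without any 1 of 9 libraries, the colon libraries of ND rats K4040, K4047 and K4048 and of D1M rats K3978 and K3986, and the ileum libraries of ND rats K4028 and K4040 and of D1M rats K3988 and K3990, with FDR from 0.0162 to 0.0495.

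Whether a group difference itself differed between tissues was tested directly. No member passed, and 1.56% of all genes passed for D3M against ND, 0% for D1M against ND and 0% for D3M against D1M. At an unadjusted p under 0.05 there were 2, 0 and 3 members, and 16.8%, 5.66% and 8.31% of all genes. For D3M against ND, 8 of 9 values were negative, which is lower in colon than in ileum, and *Zfp36* had the smallest adjusted p, with -0.97 ± 0.37 (SE, edgeR FDR 0.161, or 0.0615 without the K3986 colon library). The ileum differences of *Junb*, *Zfp36* and *Dusp1* were therefore not shown to differ from those in colon.

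Spread between rats of a group was wide for several members. The biological coefficient of variation from edgeR had a median of 0.192 over all genes in colon and of 0.186 in ileum. In colon *Egr1* had 0.866, above 98.7% of genes, *Fosb* 0.772 and *Atf3* 0.693, whereas *Jun* had 0.161, above 37.6%. In ileum *Fos* had 0.577, above 94.4% of genes, *Atf3* 0.542 and *Fosb* 0.534, whereas *Junb* had 0.166, above 42%, and *Zfp36* 0.194, above 52.8%. *Junb* and *Zfp36* varied least of the members in ileum. The flow cell term was past FDR 0.05 for no member, against 4.93% of all genes in ileum and 11.8% in colon, with *Junb* in ileum nearest at 0.0513. In ileum the unadjusted p of this edgeR test was 0.0027 for *Junb*, 0.016 for *Dusp1* and 0.033 for *Zfp36*, the members called there. For the other members in ileum it was 0.22 or more.

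Members went up and down together to different degrees. Over the 36 pairs of genes, Pearson's r of log2 CPM over 18 colon libraries had a median of 0.64, and 25 pairs exceeded 0.5. Without K3986 the median was 0.27 and 6 pairs exceeded 0.5. In ileum the median was 0.37 with 13 pairs above 0.5, and without K3986 it was 0.26 with 11. The mean r over all pairs of genes tested was 0.00216 in colon and 0.00477 in ileum. Positive and negative r cancel in that mean, and the share of all pairs above 0.5 was not counted. In ileum the highest r were 0.83 for *Junb* with *Zfp36*, 0.81 for *Fos* with *Fosb*, 0.79 for *Dusp1* with *Zfp36*, 0.79 for *Fosb* with *Atf3* and 0.77 for *Junb* with *Dusp1*. *Egr1* had 0.70 with *Atf3* and 0.63 with *Dusp1*, *Atf3* had 0.68 with *Dusp1* and 0.59 with *Fos*, and *Fos* had 0.01 with *Junb*. These values describe libraries that share depth and handling and carry no test.

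**Figure D5:**
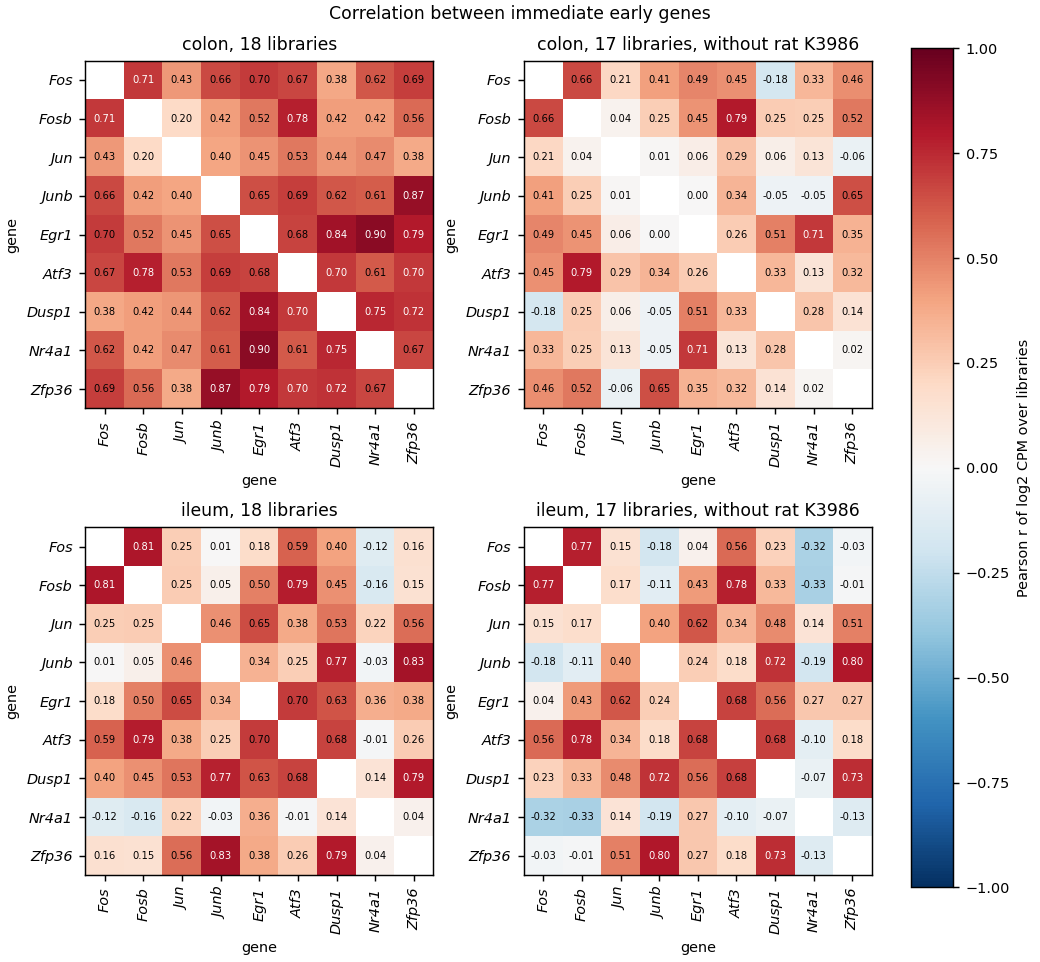
Pearson r of log2 CPM between each pair of the 9 genes, for colon (upper row) and ileum (lower row), over 18 libraries at left and without rat K3986 at right (colour scale from -1 to 1). In colon the median r falls to 0.27 without K3986, against 0.64 with it.

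Correlation with *Fos* was tested for every gene by permutation over the 18 libraries of a tissue. No member and 0% of all genes passed in colon or in ileum after adjustment over all genes. *Fosb* was nearest in both, with r = 0.71 in colon (Spearman's rho 0.76, permutation p = 0.00097, adjusted p = 0.275) and r = 0.81 in ileum (rho 0.69, permutation p = 3e-05, adjusted p = 0.130). Without the 2 libraries farthest from the *Fos* median, r was 0.75 in colon and 0.72 in ileum. Within flow cells holding at least 6 libraries, *Fosb* had r of 0.69 and 0.85 in colon and 0.80 and 0.98 in ileum. In ileum *Atf3* followed at 0.59, and *Nr4a1* had -0.12. After group and flow cell means were removed, *Fosb*, *Junb*, *Atf3* and *Zfp36* passed in colon, as did 62 genes in all, with p-values that are too small because the means had been removed. With the means kept and K3986 left out, none of the members and 63 genes in all passed, or 0.488%.

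The genes most like *Fos* in colon, among non-members of a mean log2 CPM of at least 1, were *Hbegf* (r = 0.89), *Midn* (0.85), *Sfn* (0.81), *Csrnp1* (0.77), *Btg2* (0.77) and *Arid3b* (0.77), over 18 libraries. In ileum they were *Socs3* (r = 0.84), *Hbegf* (0.83), *Clk4* (0.78), RGD1304694 (0.76), *Inpp5f* (0.76) and *Pim1* (0.75). *Hbegf* was on both lists.

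A rat high in one tissue was not shown to be high in the other. No member passed in the correlation of colon with ileum over 18 rats, where 0.282% of all genes did. All 9 r were positive, with a median of 0.35 against 0.07 over all genes, and the largest was that of *Zfp36*, 0.47 (rho 0.40, permutation p = 0.0485, adjusted p = 0.566), which was 0.08 without the 2 rats farthest from its ileum median. The members' median was 0.21 without K3986 and 0.27 after group and flow cell means were removed.

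In D3M against ND ileum, where 12.5% of all genes passed, 4 of 23 other immediate early transcription factors were higher and 1 lower. *Csrnp1* had 156 to 227 CPM in D3M ileum, against 112 to 140 CPM in ND ileum, a log2 difference of 0.77 ± 0.15 (SE, edgeR FDR 0.0057). *Fosl2*, an AP-1 subunit, was higher by 0.70 (edgeR FDR 0.0337), and *Cebpd*, a C/EBP factor, fell by 0.58 (edgeR FDR 0.0275). Of 25 other effectors, 2 were higher and none lower, *Btg2* by 0.60 and *Ppp1r15a*, a regulator of the integrated stress response, by 0.88 on the log2 scale. The third by p, *Plk2*, had -0.50 (edgeR FDR 0.0687). Of 22 upstream kinases and factors, 3 were higher, *Egfr* by 0.83, *Map2k2* by 0.39 and *Mapk3* by 0.38. None of 9 other dual specificity phosphatases and decay factors and none of 11 heat shock entries was called. In D3M against D1M ileum, where 2.22% of all genes passed, the only call in these lists was *Hsph1*, which fell by 0.59 (edgeR FDR 0.0433). The list medians in D3M against ND ileum were 0.19 for the transcription factors, 0.24 for the effectors and 0.09 for the upstream genes, against -0.08 over all genes, and none of the lists had a call in colon.

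Between tissues, where 73.2% of all genes passed, 11 of 24 other transcription factors were lower and 3 higher in colon, with *Fosl2* at -2.14, *Csrnp1* at -2.29 and *Id3* at -1.53. Of 25 effectors, 15 were lower and 1 higher, with *Gadd45b* at -1.64, *Btg1* at -0.91 and *Ier5* at -0.84. Of 10 phosphatases and decay factors, 5 were lower and 1 higher, with *Dusp6* at -1.38, *Dusp8* at -1.30 and *Dusp5* at -0.67. Of 22 upstream genes, 12 were lower and 5 higher, with *Map2k2* at -1.31 and *Elk1* at 1.01. Of 11 heat shock entries, 3 were lower and 5 higher, *Hspa8* having 2 entries, one at -0.19 (called) and one of low count at 0.35 (not called), with *Hspa5* at -0.86, *Dnaja1* at -0.56 and *Bag3* at 0.60.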

How the data were processed

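Whole distal ileum and proximal colon of 18 rats were sequenced as stranded poly-A libraries. The authors aligned reads with STAR to rn6 and deposited raw counts per gene from SeqMonk, a table of 24773 genes. Whether counting used strand could not be learned from those sources. Libraries were grouped as ND, D1M or D3M by their titles, with 6 rats each, and the groups are separate animals. Genes were filtered with filterByExpr, scaled by TMM and tested with the quasi-likelihood test of edgeR 4.0.16 in R 4.3.3, with group and flow cell as terms, over the 18 libraries of a tissue or over all 36. FDR is the Benjamini-Hochberg adjusted p over all genes tested, with a threshold of 0.05. Standard errors are the log2 fold change divided by the square root of F. Correlations were of log2 CPM (prior count 2), each with 100000 permutations. DESeq2 1.42.0 and limma 3.58.1 were alternatives. Both libraries of a rat come from 1 animal by their titles, so the rat pairs them, and the fit with the rat as block was run beside the fit without it. In the correlation of the 2 tissues over the 18 rats, the median r of the members was 0.35. The genes named were all members, the 6 non-members most like *Fos* in each tissue, and the 3 genes of smallest p from a list with a call, of which 1 is not reported here. Members and lists were chosen with earlier results of these data known. The scripts were tested on simulated data. Precision is limited by counting at low levels, as for *Fosb* in colon.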

Additional observations from a re-analysis of the deposited data

Results flagged for a closer look

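There were 54 groups of 6 libraries examined, 9 genes in 3 groups and 2 tissues. In 10 of them the gap from the highest library to the next exceeded Dixon's critical share of the group's range. Over all genes, 1 library was flagged in this way for 0.131% to 3.91% of genes, and the K3986 colon library for 0.976%. These shares are per library. Any of the 6 libraries of a group could be flagged, so the share of all genes per group is larger, and it was not counted. The criterion assumes normal values and genes of 1 library are not independent, so no chance rate is given. The colon library of D1M rat K3986 accounted for 6 of the 10, with *Egr1* at 662 CPM, *Zfp36* at 613.1, *Junb* at 475.4, *Dusp1* at 323.4, *Atf3* at 305.9 and *Fos* at 65.42 CPM. *Dusp1* in ileum was at 247.3 CPM in the same rat. *Dusp1* was at 294.9 CPM in the ileum of D3M rat P762, whose ileum library also held 1345 CPM of *Car1*. *Fos* was at 209 CPM in the ileum of D3M rat K3961. *Fosb* was at 15.07 CPM in the colon of ND rat K4028, whose library also held 8706 CPM of *Fabp6*. The part of these other values in the gaps was not tested.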

How the results depend on the processing

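Over all alternatives and single libraries left out, 3439 values of members were computed. Of these, 3299 kept their direction and side of FDR 0.05, 93 changed sign with no call, 27 lost a call, 20 gained one and none reversed a call. In D3M against ND ileum *Dusp1* was called in 14 of 31 alternatives, and it lost its call with no filter (FDR 0.0509), without flow cell 2 (FDR 0.158) and with the B cell score as covariate (FDR 0.0532), which left 2 calls. The 3 calls became 1 without a flow cell term and 0 with only the 2 groups compared, without the ileum libraries of P762 and P780, or with the ileal epithelium score as covariate. The last 2 were chosen after seeing the data. Leaving out 1 library gave 2 to 3 calls. In D3M against D1M ileum, DESeq2 gave 1 call and leaving out 1 library 0 to 1. In colon against ileum, leaving out 1 library gave 6 to 9. Correlation with *Fos* in colon gave 4 members after group and flow cell means were removed. The cause was not tested. The rat as replicate block left 7 calls in colon against ileum, with *Egr1* at -0.44 (edgeR FDR 0.228), and it took the count of all genes whose D3M against ND difference differed between tissues to 0, against 214 without the pairing. It changed no other call of a member.

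Over all genes in D3M against ND ileum, 1632 passed, against 3007 without a flow cell term, 561 without flow cell 2, 1024 without ND rat K4040, 984 without D3M rat P762, 443 without P762 and P780, 185 with only the 2 groups, 22 with the epithelium score and 675 without D1M rat K3986. In D3M against D1M ileum 289 passed, against 989 by DESeq2, 787 by limma voom, 189 with no filter, 130 without flow cell 2, 41 without P762 and P780 and 3 with the epithelium score, and from 6 to 761 with 1 library left out. In D3M against ND colon 2 passed, against 72 by DESeq2, 8 by limma voom and 315 with only the 2 groups. For D1M against ND, DESeq2 gave 44 in ileum, against 2, and 11 in colon, against 0. For the difference between tissues of D3M against ND, 214 became 514 by DESeq2, 480 by limma voom, 761 without a flow cell term and 7 without flow cell 2. Depth limits *Fosb* in colon, with 13 to 224 counts.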

Other observations

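Genes outside the lists that also stood far above the other D1M colon libraries in K3986, named after their values were seen, included *Areg*, the EGF receptor ligand amphiregulin, with 74.7 against a median of 11.1 CPM. *Phlda1* had 249 against 42.4 CPM, and *Zfand2a*, a gene induced by heat and arsenite, had 329 against 61.5 CPM. Interferon-induced genes ranked high by ratio as well but did not stand apart, *Ifit1* with 36.1 CPM against a highest other D1M value of 112 CPM and *Isg15* with 82.6 against 171 CPM.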
